A study of Mus musculus with 10 samples.

Results

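Ibrutinib is a covalent kinase inhibitor that attaches to a cysteine at the rim of the ATP pocket. The genes described here are the 9 mouse kinase genes Btk, Tec, Bmx, Txk, Blk, Jak3, Egfr, Erbb2 and Erbb4, which encode a cysteine at that place. They were found by gene symbol among the 37583 gene rows of the count data, and 8 of the 9 had enough reads to be tested. Txk did not.

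The measurements were 10 mRNA sequencing libraries from the left atria of adult mice. Vehicle-treated mice (CTL) and ibrutinib-treated mice (IBR) gave 3 libraries each. Untreated wild-type mice (WT) and mice labelled as a cardiac knockout of Csk (KO), a kinase that switches off Src-type kinases, gave 2 each. The sources used here give no dose, duration, strain, sex, exact age or Cre driver. The labels do not say that each library came from a separate animal, so the p-values measure the spread between these libraries, which may be technical.

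Btk, Tec, Bmx and Txk belong to the Tec family of cytoplasmic tyrosine kinases, which relay signals from antigen, Fc and cytokine receptors. Blk is a Src-type kinase of B cells, and Jak3 carries the signal of cytokine receptors that use the common gamma chain. Egfr, Erbb2 and Erbb4 are ErbB receptors at the cell surface. In the heart, neuregulin signals to muscle cells through Erbb4 and its partner Erbb2. Ibrutinib acts on the kinase proteins, whereas RNA levels were measured here.

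The coding sequence around the cysteine is printed below because it is the feature that defines these genes. Each stretch holds 48 coding bases, read 5′ to 3′ on the coding strand from the GENCODE vM21 transcripts of the GRCm38 build. The first capitals mark the gatekeeper codon, 7 codons before the cysteine, and the second capitals mark the codon of the cysteine.
Btk: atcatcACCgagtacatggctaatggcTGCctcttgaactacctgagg
Tec: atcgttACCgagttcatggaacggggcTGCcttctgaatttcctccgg
Bmx: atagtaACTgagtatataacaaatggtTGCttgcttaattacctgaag
Txk: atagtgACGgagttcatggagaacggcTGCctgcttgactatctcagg
Blk: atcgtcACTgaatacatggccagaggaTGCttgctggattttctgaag
Jak3: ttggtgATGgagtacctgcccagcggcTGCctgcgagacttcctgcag
Egfr: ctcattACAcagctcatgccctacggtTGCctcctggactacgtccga
Erbb2: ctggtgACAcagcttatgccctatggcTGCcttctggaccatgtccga
Erbb4: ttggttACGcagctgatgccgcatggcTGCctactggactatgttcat

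All 9 genes spelled the cysteine with the codon TGC. The gatekeeper codon encoded threonine in 8 of them and methionine in Jak3. Over the 16 residues of the stretch, 3 were identical in every one of the 9: the glycine before the cysteine, the cysteine itself and the leucine after it. The pattern used to locate the stretch required that glycine, then cysteine or serine, then leucine or alanine. Identity at these places was therefore largely set by the search. Btk shared 11 of 16 residues with Tec, 12 with Bmx, 12 with Txk and 11 with Blk, but 9 with Egfr and 6 with Jak3. Egfr shared 14 with Erbb2 and 13 with Erbb4.

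Close relatives show which part of the stretch sets these genes apart. Erbb3, a receptor with little kinase activity of its own, and Csk carry serine in place of the cysteine. Erbb3 is given here for comparison with the 3 receptors and Csk because it is the gene named in the labels.
Erbb3: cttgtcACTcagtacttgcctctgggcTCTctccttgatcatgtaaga
Csk: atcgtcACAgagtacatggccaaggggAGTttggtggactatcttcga

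Csk shared 11 of 16 residues with Btk, as many as Tec did. A protein pattern around the site was searched in 21849 protein-coding genes. It required glutamate or glutamine, then tyrosine, phenylalanine or leucine, then methionine, isoleucine or leucine, then 2 residues of any kind, glycine, the cysteine, and leucine or alanine. It was found in 16 genes, among them all 9, whose stretches had been located with this pattern or its serine form. With serine in place of cysteine it was found in 75 genes.

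In the genome the cysteine codon lies within a single exon in each of the 9 genes. In Btk it is at chrX:134549538-134549540 on the minus strand, in exon 15 of 19, and encodes residue 481 of 659. The Tec codon is at chr5:72763687-72763689 on the minus strand, in exon 15 of 19, and that of Bmx at chrX:164205291-164205293 on the minus strand, also in exon 15 of 19. Txk, which is next to Tec in the gene order, has it at chr5:72707643-72707645 on the minus strand, in exon 10 of 14, and Blk at chr14:63378540-63378542 on the minus strand, in exon 10 of 13. For Jak3 it is at chr8:71685793-71685795 on the plus strand, in exon 20 of 24.
The 3 receptors all carry it in exon 20. That is chr11:16896999-16897001 on the plus strand for Egfr (of 28 exons), chr11:98433997-98433999 on the plus strand for Erbb2 (of 27) and chr1:68198920-68198922 on the minus strand for Erbb4 (of 28).

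Across the libraries, gene counts ran from 14907331 to 19960947. Over these unadjusted totals, 3 counts correspond to 0.15 to 0.201 CPM (the count of a gene over the library total on the usual CPM scale). All other CPM values given here have the total adjusted by the trimmed mean of M values (TMM). Csk was not lower in the libraries labelled KO: it measured 18.2 and 17.8 CPM in WT35 and WT338 against 24.7 and 35.5 CPM in KO26 and KO337 (log2 difference 0.74, SE 0.18, adjusted p = 0.0608, edgeR). This is not the direction of a loss of Csk RNA. The label names a cardiac knockout, however, and bulk atria hold the Csk RNA of all their cell types. A whole-gene count also does not show whether single exons were deleted, so the label was not tested. The library KO337 stood apart. Its rank correlation with KO26 was 0.955, against 0.984 to 0.991 for other pairs within a group, and its heart muscle markers summed to 23900 CPM against 50900 in KO26 and 64500 to 67800 in WT. All libraries held Ddx3y at 107 CPM or more and Xist at 2.3 CPM or less, which bears on Btk and Bmx because both are on the X chromosome. CTL and IBR, and WT and KO, are compared only within their own experiment.

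Levels of different genes were compared as CPM per kilobase of annotated exon. In the CTL atria, Erbb4 was the most abundant of the 9 at 8.81 ± 1.98 CPM per kilobase (SD, n = 3), followed by Bmx at 6.27 ± 1.72, Erbb2 at 5.66 ± 1.85 and Tec at 4.49 ± 0.532. Libraries overlapped between each of these neighbours, so their order did not hold beyond the spread. Below them came Jak3 at 2.53 ± 0.873 CPM per kilobase, Blk at 1.2 ± 0.308, Egfr at 0.683 ± 0.161 and Btk at 0.279 ± 0.0642, and each of these steps, from Tec to Jak3 downwards, separated the libraries without overlap. Btk, the kinase that gives the drug class its name, was thus the lowest of the 8 tested. Txk was lower still, with 0, 0 and 1 counts in CTL and 1, 0 and 0 in IBR.

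The order was similar in the other experiment, with exceptions. In WT, Erbb4 stood at 15.7 CPM per kilobase, Bmx at 11.1, Tec at 6.73, Erbb2 at 4.26, Jak3 at 3.73, Egfr at 3.11, Blk at 2.58 and Btk at 0.606, each the mean of 2 libraries. In KO, Bmx was first at 17.2 CPM per kilobase and Erbb4 second at 7.21, followed by Tec at 6.94, Jak3 at 4.8, Erbb2 at 4.2, Egfr at 3.68, Btk at 2.61 and Blk at 2.6. Egfr was higher in each WT and KO library than in any CTL or IBR library, a difference between experiments that has no test here because nothing ties them together.

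**Figure D1:**
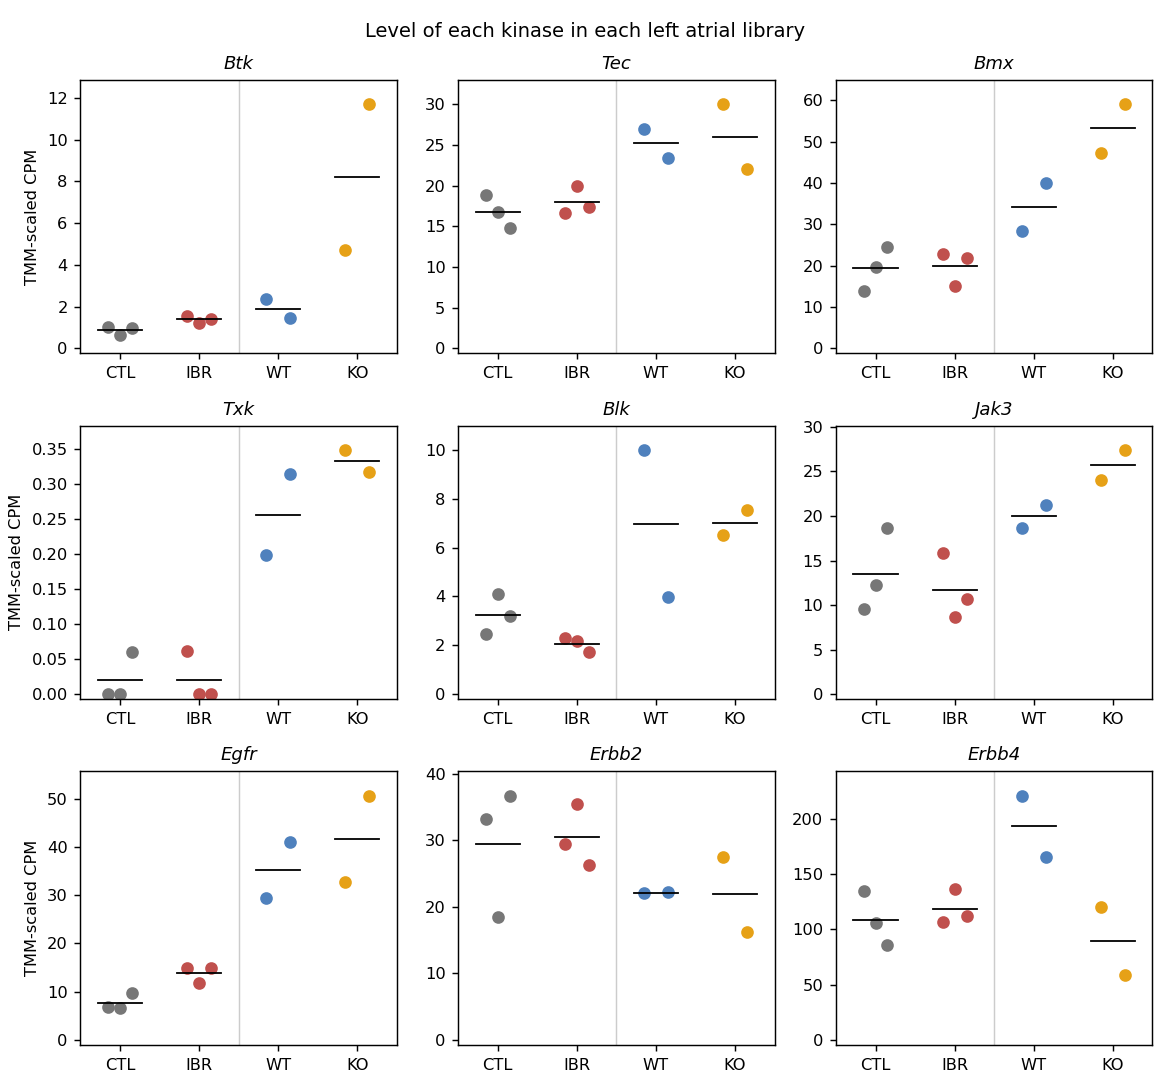
TMM-scaled CPM (vertical axes, linear, each with its own range) of the 9 kinase genes in the 10 libraries, by group. Points are libraries and bars are group means. Btk is highest in both KO libraries (4.7 and 11.7 CPM), Erbb4 is lower in both KO libraries (120 and 58.4 CPM) than in both WT libraries, and Egfr is higher in all 3 IBR libraries (11.8 to 14.9 CPM) than in all 3 CTL libraries.

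Ibrutinib against vehicle asked whether the RNA of the drug's own targets differs in treated atria. No kinase passed the test: 0 of 8 were called at an adjusted p under 0.05 (edgeR quasi-likelihood test over 15364 genes, Benjamini-Hochberg), where the share of all genes called was 0%. Over all genes, 848 had an unadjusted p under 0.05 and DESeq2 called 2 genes. Of the 8 kinases, 1 had an unadjusted p under 0.05. The median log2 difference was 0.07 over the 8 and -0.03 over all genes tested.

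Egfr, the receptor of epidermal growth factor, had the lowest p of the 8. It measured 6.82, 6.55 and 9.84 CPM in the CTL libraries and 14.9, 11.8 and 14.9 CPM in the IBR libraries. Every IBR library was above every CTL library. The log2 difference was 0.83 (SE 0.23, 95% interval 0.32 to 1.34), a 1.78-fold higher level, with an adjusted p of 0.823 (edgeR). Under the other settings tried, the log2 difference ranged from 0.73 to 1.04 and the adjusted p from 0.139 to 1, so Egfr was called under none of them.

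The 6 fibroblast markers moved alongside Egfr. Their summed level ran from 792 to 1080 CPM in CTL and from 1070 to 1670 CPM in IBR, and all 6 had a positive log2 difference (median 0.68), with none called. Other lists rose too: all 5 mesothelial markers were positive (median 0.68), all 10 macrophage markers (0.48) and 7 of 8 endothelial markers (0.39). So were all 6 arterial and endocardial markers (0.31) and 6 of 7 T and NK cell markers tested (0.71). The T and NK cell markers were low, summing to at most 1.66 CPM in CTL and 3.02 CPM in IBR. Heart muscle markers had a median of 0. All 4 atrial muscle and all 4 neutrophil markers tested were negative, as were 4 of 5 platelet markers and 3 of 4 adipocyte markers tested. Egfr per 1000 CPM of fibroblast markers was 8.19, 8.27 and 9.12 in CTL and 9.08, 10.9 and 8.87 in IBR, where the groups overlap. Without Dcn, which gave more of the sum than any other marker, it was 22, 21.2 and 22.8 in CTL and 24.4, 28 and 28.3 in IBR, where they do not. The part of these cells in the Egfr difference was not tested. In bulk tissue, more cells of a type and more RNA per cell cannot be told apart, here and in all results that follow.

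Btk, the kinase of B cells and myeloid cells that ibrutinib was developed against, was rare in these atria. Its levels were 1.02, 0.648 and 0.965 CPM in CTL (18, 9 and 16 reads) and 1.54, 1.21 and 1.41 CPM in IBR (25, 21 and 23 reads). The groups did not overlap, but the log2 difference of 0.64 (SE 0.42) had a 95% interval of -0.29 to 1.56 and an adjusted p of 0.824 (edgeR). Macrophage markers, 10 genes such as Csf1r and Adgre1, summed to 294 to 357 CPM in CTL and 385 to 548 CPM in IBR. Btk per 1000 CPM of these markers was 3.48, 2.19 and 2.7 in CTL and 2.81, 3.13 and 3.39 in IBR, which overlap. The part of macrophages in the Btk difference was not tested.

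Blk was the other gene whose groups did not overlap, and it was lower with the drug. It measured 2.45, 4.11 and 3.2 CPM in CTL and 2.28, 2.18 and 1.71 CPM in IBR (log2 difference -0.65, SE 0.36, 95% interval -1.45 to 0.14, adjusted p = 0.823, edgeR). B cell markers, 8 genes such as Cd79a and Cd79b, summed to only 1.19 to 3.96 CPM in CTL and 1.34 to 2.9 CPM in IBR. Per kilobase, Blk at 1.2 CPM in CTL lay above Cd79a at 0.3 and Cd79b at 0.304, which are defining B cell genes. In all, 3 of the 8 kinases (37.5%) had groups that did not overlap, against 13.4% of all genes tested.

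The remaining kinases overlapped between the drug and vehicle groups. Tec measured 18.8, 16.7 and 14.8 CPM in CTL and 16.6, 20 and 17.4 CPM in IBR, and its interval was the narrowest (log2 difference 0.1, 95% interval -0.25 to 0.46). Bmx, a kinase of the endothelium and endocardium, measured 13.9, 19.8 and 24.5 CPM against 22.9, 15.1 and 21.9 CPM (log2 difference 0.04, 95% interval -0.49 to 0.57). Jak3 measured 9.61, 12.3 and 18.7 CPM against 15.8, 8.61 and 10.7 CPM (log2 difference -0.21, 95% interval -0.81 to 0.39). For Bmx the interval runs up to a 1.49-fold higher level, so a difference of that size is not excluded.

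Erbb2 and Erbb4, the neuregulin receptors of heart muscle, also overlapped. Erbb2 measured 33.2, 18.5 and 36.7 CPM in CTL and 29.5, 35.5 and 26.3 CPM in IBR (log2 difference 0.05, 95% interval -0.54 to 0.63). Erbb4 measured 135, 106 and 85.7 CPM in CTL and 107, 137 and 112 CPM in IBR (log2 difference 0.13, 95% interval -0.45 to 0.7). The CTL libraries alone spread almost 2-fold in Erbb2, with CTL2 the low library. Adjusted p-values of Tec, Bmx, Jak3, Erbb2 and Erbb4 ran from 0.893 to 0.982 (edgeR). Their relative Erbb3 had a log2 difference of 0.05 and was not called.

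**Figure D2:**
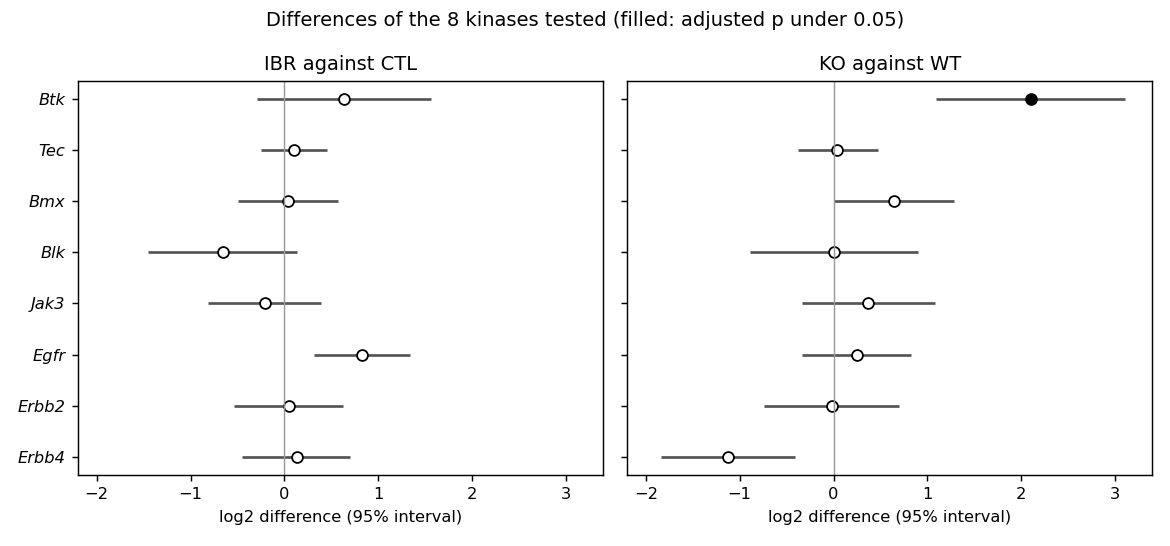
Log2 difference (horizontal axes) of the 8 tested kinases for IBR against CTL on the left and KO against WT on the right, with 95% intervals as lines and a filled point for an adjusted p under 0.05. On the left every point is open and the Egfr interval of 0.32 to 1.34 is clear of 0. On the right Btk is filled at 2.1 and Erbb4 lies at -1.12.

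The comparison of KO with WT shows the same genes in the second experiment, in which no drug was given. Btk was higher in the libraries labelled KO and passed the test, 1 of 8 kinases called against 2.21% of all genes tested (339 of 15364, 201 higher and 138 lower). The median log2 difference was 0.14 over the 8 and 0.01 over all genes.

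Btk measured 2.37 and 1.44 CPM in WT35 and WT338 and 4.7 and 11.7 CPM in KO26 and KO337, from 48, 23, 81 and 260 reads. Both KO libraries were above both WT libraries, and KO337 held more than double the level of KO26. The level was 4.29-fold higher (95% interval 2.12 to 8.64, log2 difference 2.1, SE 0.46, adjusted p = 0.0465, edgeR). The call lay at the threshold. It was kept in 4 of 14 other settings, and leaving out any library other than KO26 ended it: adjusted p was 0.0664 to 0.0827 without any single CTL or IBR library, which are in neither group, 0.181 without WT35, 0.212 without WT338, and 0.244 without KO337, where the log2 difference was 1.26. WT and KO fitted alone gave a log2 difference of 2.13 and an adjusted p of 0.324, and DESeq2 gave 0.00228.

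Macrophage markers were at 509 and 553 CPM summed in WT and 866 and 3320 CPM in KO26 and KO337. All 10 had a positive log2 difference (median 2.1) and 2 were called. Btk per 1000 CPM of macrophage markers was 4.66 and 2.61 in WT and 5.43 and 3.54 in KO, so on this scale the groups overlap. That overlap rests on Lyz2, a lysozyme of myeloid cells, which alone gave 1840 of the 3320 CPM in KO337: over the other 9 markers Btk was at 6.63 and 3.57 in WT and 8.4 and 7.91 in KO, without overlap. B cell markers summed to 2.13 and 3.52 CPM in WT and 4.58 and 13.5 CPM in KO, and without Cd22 (1.51 and 7.59 CPM in KO) to 1.78 and 3.33 CPM in WT and 3.07 and 5.92 CPM in KO, which overlap. The part of either cell type in the Btk difference was not tested.

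Erbb4 was lower in the libraries labelled KO but did not pass the test. It measured 221 and 166 CPM in WT and 120 and 58.4 CPM in KO. Both KO libraries lay below both WT libraries, KO337 the lower. The log2 difference was -1.12 (SE 0.32, 95% interval -1.84 to -0.41, 2.18-fold lower) with an adjusted p of 0.0821 (edgeR). DESeq2 called it (adjusted p = 0.0115), as did the fit without KO26 (log2 difference -1.74, adjusted p = 0.00189). Without KO337 the log2 difference was -0.72 and the adjusted p 0.278.

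The 8 heart muscle markers, among them Myh6 and Tnnt2, were all negative in the same comparison (median -0.9, none called) and summed to 67800 and 64500 CPM in WT against 50900 and 23900 CPM in KO. Erbb4 per 1000 CPM of these markers was 3.26 and 2.58 in WT and 2.35 and 2.45 in KO, lower in both KO libraries by less than on the CPM scale. The part of heart muscle RNA in the Erbb4 difference was not tested. Erbb3 had a similar pattern, with 34.3 and 27.4 CPM in WT and 19.4 and 8.27 CPM in KO (log2 difference -1.16, adjusted p = 0.0763, edgeR). Erbb2 measured 22.1 and 22.2 CPM in WT and 27.5 and 16.3 CPM in KO, and its groups overlapped (log2 difference -0.02, 95% interval -0.74 to 0.7).

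Bmx and Jak3 were higher in both KO libraries than in both WT libraries, without passing the test. Bmx measured 28.4 and 40 CPM in WT and 47.4 and 59.1 CPM in KO (log2 difference 0.64, SE 0.29, 95% interval 0.01 to 1.28, adjusted p = 0.19, edgeR). Endothelial markers, 8 genes such as Pecam1 and Cdh5, overlapped between the groups at 1100 and 1300 CPM in WT and 1230 and 1530 CPM in KO. Bmx per 1000 CPM of these markers was 25.7 and 30.8 in WT and 38.7 and 38.6 in KO, higher in both KO libraries. Jak3 measured 18.7 and 21.2 CPM in WT and 24 and 27.4 CPM in KO (log2 difference 0.37, 95% interval -0.34 to 1.08). Insl3 shares 404 of the 5352 exon bases of Jak3 on the same strand in GENCODE, so reads there cannot be assigned to either gene with certainty.

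The other kinases overlapped between WT and KO. Tec measured 27 and 23.4 CPM in WT and 30 and 22 CPM in KO (log2 difference 0.04, 95% interval -0.38 to 0.47). Egfr measured 29.5 and 41.1 CPM in WT and 32.8 and 50.6 CPM in KO (log2 difference 0.25, 95% interval -0.34 to 0.83, -0.12 without KO337), although the fibroblast markers summed to 2060 and 1890 CPM in WT35 and WT338 and 2320 and 6010 CPM in KO26 and KO337. Blk measured 9.99 and 3.96 CPM in WT and 6.5 and 7.54 CPM in KO, with WT35 the highest library of all (log2 difference 0.01, 95% interval -0.89 to 0.9). Leaving out 1 library at a time moved the Blk difference from -0.52 to 0.82, so its direction rests on single libraries. Txk had 4 and 5 reads in WT and 6 and 7 in KO, too few to test.

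Of the 8 kinases, 4 (50%) had WT and KO groups that did not overlap: Btk, Bmx and Jak3 higher and Erbb4 lower. With 2 libraries a group, 53.2% of all genes tested had groups that did not overlap, so this count is near the background.

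**Figure D3:**
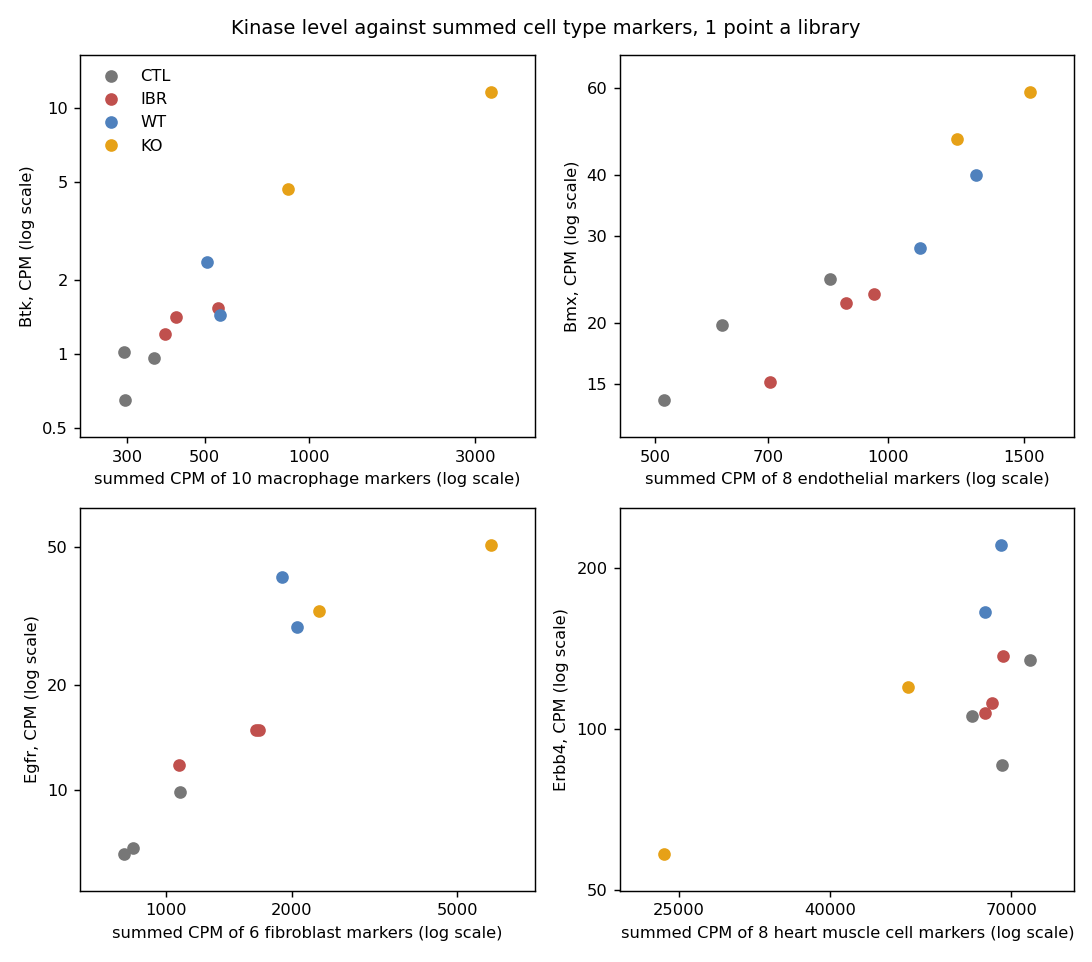
Level of Btk, Bmx, Egfr and Erbb4 (vertical axes, CPM) against the summed CPM of macrophage, endothelial, fibroblast and heart muscle markers (horizontal axes), both on log scales, with a point for each of the 10 libraries coloured by group. KO337 lies at the end of each marker axis, at 3320 CPM for macrophages and 23900 CPM for heart muscle. The Btk and Bmx points broadly rise along their marker axes across all groups.

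Whether a kinase differed between the drug comparison and the genotype comparison was tested as a contrast, KO minus WT less IBR minus CTL. None of the 8 was called, against 0.026% of all genes tested (4 genes, all lower). At an unadjusted p under 0.05 there were 1504 of all genes, among them Btk and Erbb4. Btk had a difference of effects of 1.46 on the log2 scale (SE 0.62, adjusted p = 0.493) and Erbb4 of -1.25 (SE 0.41, adjusted p = 0.402). Both were called when KO26 was left out, with 1.95 for Btk (adjusted p = 0.0366) and -1.87 for Erbb4 (adjusted p = 0.0072, all edgeR), a fit in which KO337 stood alone for its group. The Egfr effects, 0.83 for the drug and 0.25 for the genotype, differed by -0.59 (95% interval -1.37 to 0.19), which did not pass.

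The partners of these kinases were read from lists of pathway genes, beside the same counts over all genes tested. The Btk pathway list held 28 genes that act with Tec family kinases in B cells and myeloid cells, such as Syk and Plcg2. In IBR against CTL, 20 were positive and 8 negative (median log2 difference 0.16) and none was called. Lcp2, an adaptor in front of phospholipase C gamma, measured 1.93, 1.8 and 1.51 CPM in CTL and 3.14, 3.27 and 2.69 CPM in IBR, without overlap (log2 difference 0.79). Fcgr1, the high-affinity IgG receptor and also a macrophage marker here, had a log2 difference of 1.42.

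In KO against WT, 24 of the 28 were positive and 4 negative (median 1.68, against 0.01 over all genes), and 7 were called higher, 25% of the list where 2.21% of all genes were called. Vav1, a guanine nucleotide exchange factor, measured 3.71 and 2.89 CPM in WT and 10.2 and 21.8 CPM in KO (log2 difference 2.28, adjusted p = 0.031, edgeR). Lcp2 measured 4.79 and 3.33 CPM in WT and 11.1 and 15.4 CPM in KO (1.7, adjusted p = 0.0296). The others called were Pik3cd, the catalytic subunit of PI3-kinase delta, at a log2 difference of 2.01, its adaptor Pik3ap1 at 2.33, Rac2, a GTPase of blood cells, at 2.31, Was at 1.91 and Fcgr1 at 2.4. Syk itself overlapped, at 94 and 118 CPM in WT and 84.1 and 121 CPM in KO. The number called stayed near 7 in only 2 of 14 other settings, and without KO337 the median fell to 0.75. WT and KO fitted alone called none of the 28, and 0 of all genes. The macrophage markers given above moved the same way, and Fcgr1 is in both lists. So did all 7 T and NK cell markers tested (median 2.73) and all 4 neutrophil markers tested (2.47). Of the platelet markers, 4 of 5 were negative. The part of any of these cells in the counts was not tested.

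Src-type and other kinases that ibrutinib also binds, which lack the cysteine, formed a list of 11 with 10 tested. With the drug 6 were positive and 4 negative (median 0.03), none called. Frk had the lowest p of the list, at 1.48, 1.15 and 1.75 CPM in CTL and 3.51, 3.85 and 2.57 CPM in IBR, without overlap (log2 difference 1.17, adjusted p = 0.823, edgeR). In KO against WT, 9 were positive (median 0.76) and 1 was called higher, where 2.21% of all genes were called. The number called ran from 0 to 5 over the other settings, with 5 under DESeq2, where 1832 of all genes were called. Without KO337 the median was 0.45.

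The ligands of the ErbB receptors, 11 genes with 8 tested, gave 2 positive and 6 negative differences with the drug (median -0.04), none called. Tgfa, a ligand of Egfr, had a log2 difference of 0.84, at 3.41, 3.53 and 8.21 CPM in CTL and 9.31, 6.95 and 11 CPM in IBR. In KO against WT, Egf was called lower. It lay between 27.9 and 29.8 CPM in all 6 CTL and IBR libraries and measured 36.1 and 28.7 CPM in WT against 12.4 and 6.32 CPM in KO (3.49-fold lower, log2 difference -1.8, SE 0.26, adjusted p = 0.023, edgeR).

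The Egf difference kept its call without KO337 (-1.41, adjusted p = 0.0176). It lost it without IBR3 (adjusted p = 0.0565), without WT35 (0.123), without WT338 (0.0546) and with WT and KO fitted alone (0.297). Nrg1, a neuregulin that binds Erbb4, measured 2.32 and 1.13 CPM in WT and 5.1 and 34.6 CPM in KO, with KO337 far above the others, and it was not called. Over the list, 3 were positive and 5 negative (median -0.12).

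Genes that carry or limit the ErbB signal, 27 in all, such as Grb2, Errfi1 and Shc1, were centred on 0 in both comparisons. With the drug 14 were positive and 13 negative (median 0.01), and in KO against WT 13 were positive and 14 negative (median -0.01), with none called in either. In KO against WT, none was called in 11 of 14 other settings. DESeq2 called 2 and the fit with no filter on low counts called 2, where 1832 and 1146 of all genes were called. Another setting called more. Lrig3 had a log2 difference of 0.69 with the drug and 1.48 in KO against WT (adjusted p = 0.0738, edgeR), and Stat5b of -0.94 in KO against WT (adjusted p = 0.0787).

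The Jak3 list held 18 receptors, kinases, STAT proteins and feedback inhibitors, 17 of them tested. The drug gave 9 positive and 8 negative differences (median 0.03), none called, with Il2ra at 1.35 and Socs1 at -0.82. KO against WT also gave 9 positive and 8 negative (median 0.14). Here 1 was called, Il21r, a receptor that pairs with the common gamma chain, at 0.741 and 0.754 CPM in WT and 3.77 and 6.6 CPM in KO (log2 difference 2.79, adjusted p = 0.0356, edgeR). Without KO337 it was 2.3 (adjusted p = 0.134). Against the 2.21% of all genes called, the list thus had 1 of 17. This number ran from 0 to 6 over the other settings, with 6 under DESeq2, where 1832 of all genes were called.

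For the difference of effects, none of the genes of these lists was called in the main fit, against 0.026% of all genes tested, but some were under other settings. The Btk pathway genes had 25 positive and 3 negative differences (median 1.35, against 0.03 over all genes, and 0.5 without KO337), with Pik3cd at 1.78. The ErbB signalling genes had a median of 0, and Egf had a difference of -1.76 (adjusted p = 0.214, edgeR). The Egf value ranged from -2.33 to -1.39 over 13 other settings and was called in 3 of them.

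**Figure D4:**
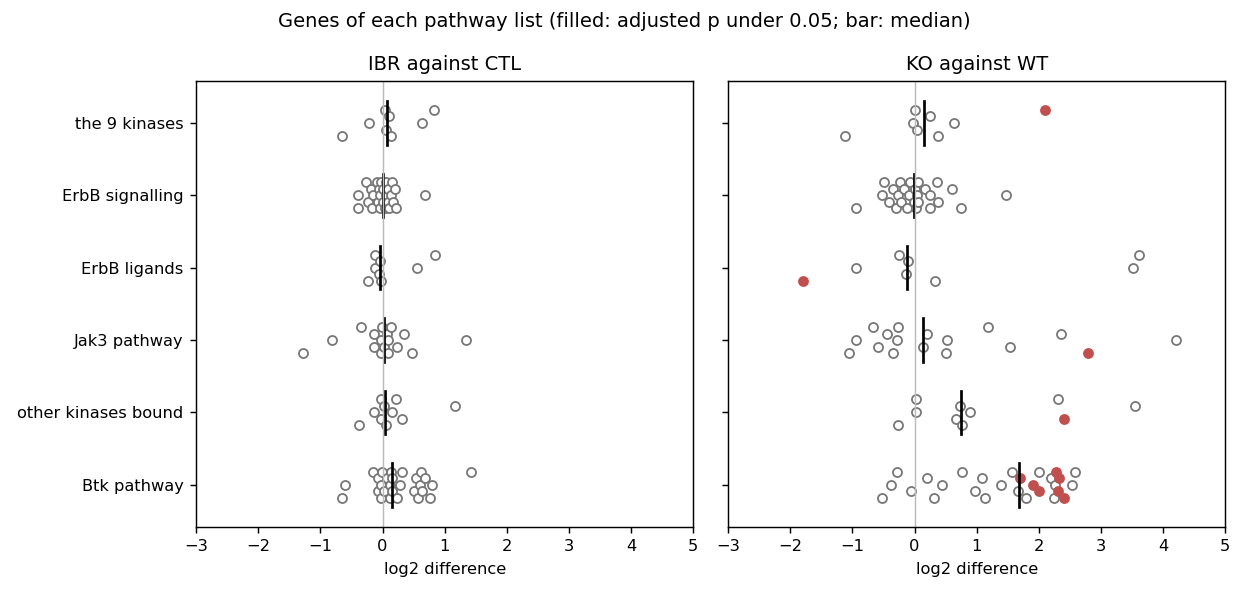
Log2 difference (horizontal axes) of each tested gene of the 9 kinases and of 5 lists of related genes, for IBR against CTL on the left and KO against WT on the right. Points are genes, bars are list medians, and filled points passed an adjusted p of 0.05. On the left no point is filled, and on the right the Btk pathway list has the median farthest from 0 (1.68) and 7 filled points.

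The genes whose pattern was most like each kinase were named by Pearson's r of log2 CPM over the 10 libraries, each taken as its deviation from the mean of its experiment, among 11809 candidates. These are descriptions: the points share library, depth and tissue makeup. Btk was most like Clec12a, a myeloid lectin receptor (r = 0.99, and 0.97 without KO337), which measured 6.18 and 3.77 CPM in WT and 16.9 and 39.6 CPM in KO. Next came Gatm and Arl6ip1 (both 0.98). Bmx was most like Arap3 (0.96), a GTPase regulator, and Jak3 was most like Pkn3 (0.94).

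For the receptors, Egfr was most like Gcnt2 (0.97), Chrdl1 (0.96) and Plat (0.96), the tissue plasminogen activator. Erbb2 was most like Bcl9 (0.97), and Erbb4 was most like Stom (0.99), Ces1d (0.98) and Rtn2 (0.97). Tec was most like Kat6b (0.94) and Blk most like Gpr137 (0.93). Among the 9 themselves, Bmx and Jak3 moved together (0.82, and 0.81 without KO337), and Bmx and Erbb4 moved oppositely (-0.86, and -0.91 without KO337). Btk and Erbb4 had -0.75, but -0.28 without KO337, so that relation rested on 1 library.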

How the data were processed

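Each library had 1 deposited file of raw gene counts, which the authors made with STAR and HTSeq on build mm9, per the submitters' processing notes. The sources used here give no versions or annotation. File names state that strand was ignored. Of 37583 Ensembl rows, 32860 (87.4%) matched a symbol. The 5 rows of unassigned reads stayed out (13.5% to 19.9% in no feature, 3.14% to 3.99% ambiguous, 11.8% to 27.4% without a unique position).

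Counts were fitted with edgeR 4.0.16 (R 4.3.3): filterByExpr (minimum count 10, total 15) kept 15364 genes, with TMM scaling, all 10 libraries in 1 robust quasi-likelihood fit by group (6 residual degrees of freedom, common coefficient of variation 0.221) and Benjamini-Hochberg adjustment; called means an adjusted p under 0.05. Exon lengths and coding sequences came from GENCODE vM21 (GRCm38), another build than mm9, so lengths are approximate. DESeq2 1.42.0, other scaling, no filter, libraries left out and a replicate block were tried as alternatives. Marker sums without the most abundant marker of each list were added after seeing the data.

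The kinases and lists were chosen with earlier results of these data known. The genes named are the 9 kinases, up to 6 called genes per list and comparison or else the 2 with the lowest p, and the 3 genes most like each kinase, of which some are given. Fcgr1 as a called gene in KO, Nrg1, Syk, the marker examples and the genes named only as examples of a list were chosen in addition, after values were seen. Some genes of the lists are not reported here, but all counts include them.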

Additional observations from a re-analysis of the deposited data

How the results depend on the processing

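Btk, the kinase called in KO against WT, kept its direction under every alternative run, with log2 differences from 1.26 to 2.59. For IBR against CTL, 0 genes were called, 2 with no filter on low counts and 2 with DESeq2, and 0 kinases under all of them. For KO against WT, the 339 genes called became 1146 with no filter (467 higher and 679 lower, against 201 and 138), 1832 with DESeq2 (902 and 930), 0 with WT and KO fitted alone, and 14 to 3933 when 1 library was left out. The number of kinases called, 1, became 2 with DESeq2, 0 with those groups fitted alone, and 0 to 2 when 1 library was left out. For the difference of effects, 4 genes became 84 with no filter, 140 with DESeq2 and 0 to 1564 with 1 library left out, and the kinases called ranged from 0 to 2. The causes were not tested. Where a group kept 1 library, that library was assumed to vary like the other groups.

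CTL and IBR libraries share replicate numbers. Same-numbered libraries deviated together only weakly (correlations 0.02, 0.16 and 0.03), and CTL3 correlated best with IBR1 (0.18). With 3 libraries a group, each taken as its deviation from the group mean, this check cannot exclude that the numbers pair them. With the replicate block, 0 genes and 0 kinases were called, and Egfr had a log2 difference of 0.88 (adjusted p = 0.139, edgeR).

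Dividing by the longest transcript in place of all exons moved the CTL level of Tec from 4.49 to 6.32 CPM per kilobase and of Btk from 0.279 to 0.346, which places Tec above Erbb2 (5.88) and leaves Btk the lowest of the 8 tested. Depth limits Btk and Txk most, which had the fewest reads in CTL and IBR.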
